A study of Homo sapiens with 18 samples.

Results

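The RBM genes are a set of human genes named for the RNA-binding motif that most of their proteins carry. Members were taken by symbol, as every GENCODE gene whose symbol is RBM followed by a digit, and 65 symbols matched, 38 of them protein-coding. Of the 233650 introns with a deposited splicing value, 601 in 138 clusters had a splice site at an annotated exon boundary of 38 of these genes. Of those, 334 introns in 103 clusters of 37 genes had a mean value between 1% and 99% and were tested, among 152722 tested introns in all. The tested introns lay in 34 protein-coding genes (302 introns) and in the non-coding genes RBM15-AS1, RBM26-AS1 and RBM33-DT (32 introns). The filter on the mean left out 232 member introns that were too low and 35 that were too high. RBM11, RBM15B and RBM46 had no intron with a value, and the read-through gene RBM14-RBM4 had none that was tested as its own.

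RNA-recognition motifs bind short single-stranded stretches of RNA, and many RBM proteins act on the splicing of other transcripts. RBM5, RBM6, RBM10, RBM17, RBM25 and RBM39 meet the spliceosome near the splice sites and shift the choice of exons, while RBM41 and RBM48 belong to the minor spliceosome, which removes a rare class of introns. Genes for splicing regulators often carry alternative exons of their own that shift the reading frame or end it early, and such transcripts can be removed by nonsense-mediated decay (NMD). Most spliceosomal snRNPs are built on a ring of Sm proteins, and SNRPD3 encodes the Sm protein SmD3.

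All groups share 1 neuroblastoma line, SHEP.tet21n, and its MYCN transgene, a human cDNA that doxycycline (Dox) switches off. MYCN- cells received 2 µg/mL Dox and MYCN+ cells received DMSO vehicle, and each was transfected with a non-targeting siRNA (SNRPD3+) or with 1 of 2 SNRPD3 siRNAs (SNRPD3- #1 and #2). The 6 groups were thus MYCN-/SNRPD3+ (wildtype), MYCN-/SNRPD3- #1, MYCN-/SNRPD3- #2, MYCN+/SNRPD3+, MYCN+/SNRPD3- #1 and MYCN+/SNRPD3- #2, with 3 libraries each and 18 in all. Dox and MYCN status cannot be told apart, since every MYCN- library received Dox. Neither the repression of MYCN nor the knockdown of SNRPD3 was checked here, since no intron of either gene entered the analysis, and the values hold no gene levels by which to check the cell line. The labels number the replicates without saying whether they were separate cultures. The paper's legend for its RNA-seq figure describes 3 independent biological replicates. The p-values measure the spread between these libraries, part of which may be technical.

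The value of an intron is its PSI, the share of the reads spanning the introns of a cluster that removed that intron, given here in percent. A cluster is a set of introns that share splice sites, so its introns trade off against each other and PSI holds neither intron retention nor the level of the gene. In bulk RNA, a form made by fewer cells and a form made less in every cell cannot be told apart. The number of reads behind a PSI is unknown, and no interval was attached to a single value. In 19 of the 334 tested member introns (5.69%) an identical value recurred between libraries, against 26374 of all tested introns (17.3%). Each intron was fitted with limma on log2((PSI + 0.01)/(1 - PSI + 0.01)), called log2 odds below, with all 6 groups in 1 fit, and was called at an adjusted p under 0.05 after Benjamini-Hochberg adjustment over all tested introns. An exon between introns was also given a skipping share, in which the PSI of the skipping intron is divided by its sum with the average PSI of both flanking introns. Of 56 such cassette sets in RBM genes, 50 were tested among 18473 in all.

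Counting introns and skipping shares over all comparisons together, RBM39, RBM25, RBM5 and RBM6 held most of the calls. All 4 are of the splice site choice group, which had 100 of the 334 tested introns. RBM6 had called skipping shares only and no called intron, while RBM10 and RBM48 had called introns as well. The role groups were chosen with earlier results of these data known. The counts below include a pair of RBM10 introns that passed the filter on the mean only through groups where 1 of them was high. The calls of that pair are therefore no support. Most calls, in RBM introns as in all tested introns, came between MYCN+/SNRPD3- and wildtype or between MYCN+ and MYCN-. Between the 6 MYCN+/SNRPD3- libraries and the 3 wildtype libraries, 8 of the 334 RBM introns (2.4%) were called, 5 higher and 3 lower, where 0.559% of all tested introns were called. They lay in 5 clusters of 5 genes, RBM10, RBM25, RBM26, RBM39 and RBM45. Leaving out any 1 of the 3 wildtype libraries reduced the count from 8 to 0, leaving out replicate 3 of MYCN+/SNRPD3- #2 reduced it to 2, and leaving out any other library gave 4 to 6. With siRNA #1 alone 4 introns were called, where 0.278% of all introns were, and with siRNA #2 alone 0, where 0.11% of all were.

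Between the 9 MYCN+ and the 9 MYCN- libraries, 9 RBM introns (2.69%) were called, 5 higher and 4 lower, where 1.23% of all tested introns were called. They lay in 5 clusters, of RBM5, RBM10, RBM20, RBM25 and RBM39. Without 1 library the count was 3 to 9, lowest without replicate 2 of MYCN-/SNRPD3- #2 or of MYCN+/SNRPD3+. It was 4 or 5 without replicate 2 or 3 of wildtype, replicate 1 or 2 of MYCN-/SNRPD3- #1, or replicate 3 of either MYCN+/SNRPD3- group. With siRNA #1 alone 3 were called and with siRNA #2 alone 4, where 0.405 and 0.389% of all introns were called. Between the 12 knockdown and the 6 control siRNA libraries, 2 RBM introns (0.599%) were called, where 0.0242% of all introns were called. They were the competing introns of 1 RBM48 cluster, so a single splice choice was counted from both sides. With MYCN expressed, knockdown gave the same count of 2, again from 1 RBM48 cluster, where 0.0196% of all introns were called. For the main effect 0 RBM introns were called with siRNA #1 or #2 alone, where 0.0183 and 0.0203% of all introns were called. With MYCN expressed 2 were called with siRNA #1 alone and 0 with siRNA #2 alone, where 0.0144 and 0.0164% of all were called.

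No RBM intron was called by limma in the other comparisons. For MYCN alone, MYCN+/SNRPD3+ against wildtype, 0 RBM introns were called and 21 had an unadjusted p under 0.05, where 0.0543% of all introns were called. For knockdown with MYCN repressed, 0 were called and 20 had an unadjusted p under 0.05, where 0.0138% of all were called. For the interaction of MYCN and knockdown, 0 were called and 9 had an unadjusted p under 0.05, where 0.0177% of all were called. No knockdown effect on an RBM intron was thus shown to differ with MYCN. In the order given, the unadjusted counts were 6.29, 5.99 and 2.69% of RBM introns. Of all tested introns, 6.19, 4.69 and 3.98% had an unadjusted p under 0.05. These comparisons share libraries: wildtype is the reference of several of them, and MYCN+/SNRPD3- cells enter the combined contrast and both main effects. The median absolute PSI difference of RBM introns was 1.24 percentage points in the combined contrast, 0.721 for MYCN and 0.761 for knockdown, where all tested introns had 1.73, 1.21 and 1.1.

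**Figure D1:**
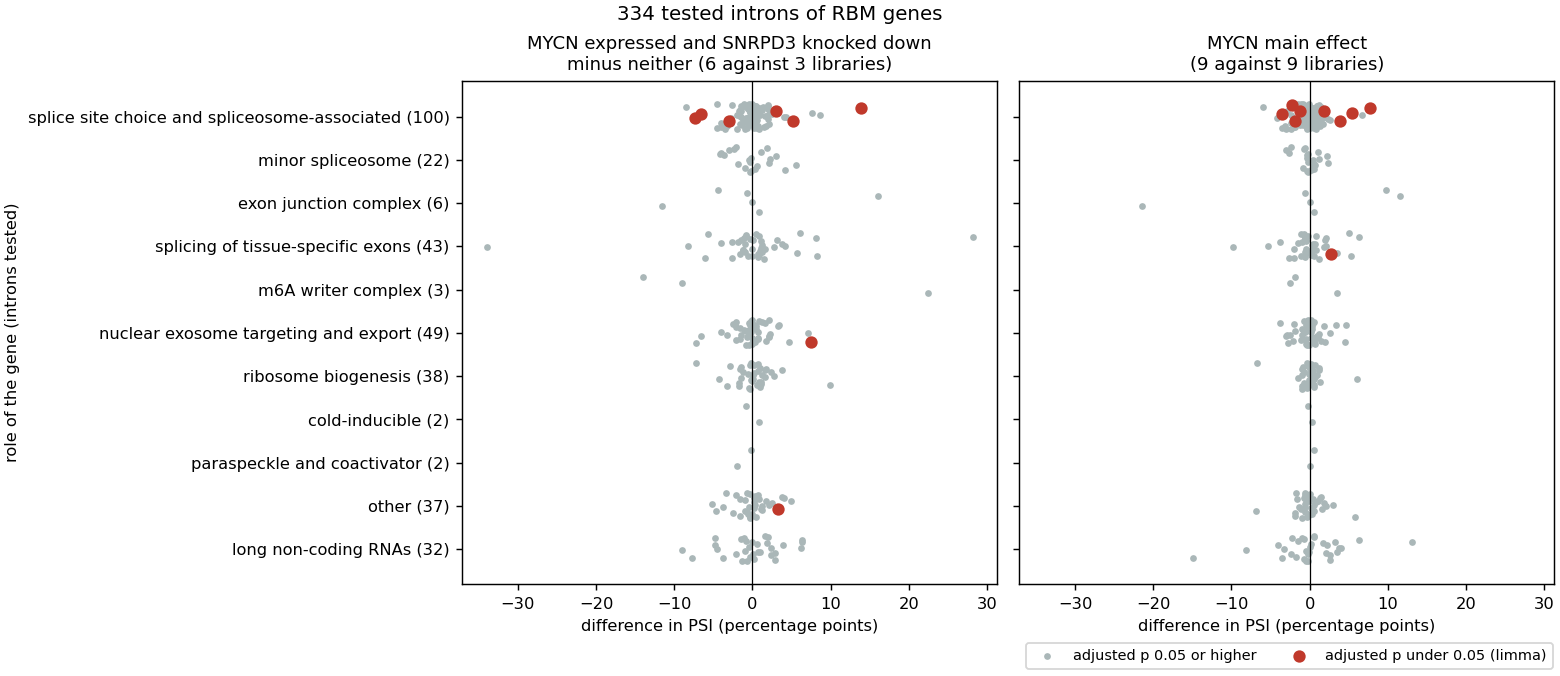
Difference in PSI (percentage points, x axis) of each of the 334 tested RBM introns, by role of the gene (y axis, number of introns tested in brackets), for MYCN+/SNRPD3- against wildtype (left) and MYCN+ against MYCN- (right); large red points are introns with an adjusted p under 0.05. In the left panel 6 of the 8 called introns lie in the splice site choice group, and in the right panel 8 of 9. That group holds 100 of the 334 tested introns, and 0.559% (left) and 1.23% (right) of all tested introns were called. Both counts include the RBM10 pair, whose calls are no support.

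RBM39 is a coactivator and splicing factor related to U2AF2, which recognises 3′ splice sites, and is the target of aryl sulfonamide degraders. RBM39 (ENSG00000131051) lies on the minus strand of chromosome 20. Between its exons 2 and 3 the annotation has an alternative exon of 73 bases (chr20:35740525-35740597, hg38). This exon is not in the canonical transcript, and its splice to exon 3 is annotated only in transcripts marked as NMD targets. The splice sites are shown because the called introns of RBM39 all use them, with exon bases in capitals and intron bases in lower case, 5′ to 3′ on the minus strand.
RBM39 exon 2, 5′ splice site (chr20:35740818-35740826): AAGgtgaga
RBM39 73-base exon, 3′ splice site (chr20:35740595-35740617): ccatctatctctctttgtagACT
RBM39 73-base exon, 5′ splice site (chr20:35740519-35740527): AAGgtagta
RBM39 exon 3, 3′ splice site (chr20:35739015-35739037): cttctatcaaccctgcttagGAT

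In RBM39, joining of exon 2 directly to exon 3 (chr20:35739017-35740824, where the ends are the last and first bases of the flanking exons) was higher in MYCN+/SNRPD3- cells. Its PSI was 70.6, 63.7 and 67.1% in wildtype, 75.9, 71.3 and 78.3% in MYCN-/SNRPD3- #1, and 71.9, 63.6 and 71.1% in MYCN-/SNRPD3- #2. It was 72.4, 74.8 and 70.0% in MYCN+/SNRPD3+, 79.8, 82.0 and 85.7% in MYCN+/SNRPD3- #1, and 78.6, 79.1 and 80.8% in MYCN+/SNRPD3- #2. All 6 MYCN+/SNRPD3- libraries lay above every wildtype and every MYCN+/SNRPD3+ library, whereas wildtype and MYCN+/SNRPD3+ overlapped. The group means rose from 67.1% ± 3.46 (SD, n = 3) in wildtype to 82.5% ± 3.0 and 79.5% ± 1.15 (SD, n = 3 each) in MYCN+/SNRPD3- #1 and #2, 13.9 percentage points or 1.04 ± 0.18 log2 odds (SE; limma, adjusted p = 0.0256). Like every RBM intron call in this contrast, it was lost without any 1 wildtype library. MYCN as a main effect gave 7.74 points (adjusted p = 0.0295, kept in 8 of 18 fits without 1 library, with a largest value of 0.0641 without replicate 3 of MYCN+/SNRPD3- #2), knockdown as a main effect 6.76 points (adjusted p = 0.256), MYCN alone 5.26 points (adjusted p = 0.901) and knockdown with MYCN expressed 8.62 points (adjusted p = 0.347).

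Joining of RBM39 exon 2 to the 73-base exon moved the other way. Its PSI was 14.05, 13.65 and 13.33% in wildtype, 9.42, 11.6 and 7.94% in MYCN-/SNRPD3- #1, and 11.8, 14.1 and 11.7% in MYCN-/SNRPD3- #2. It was 9.98, 10.2 and 12.8% in MYCN+/SNRPD3+, 7.92, 6.70 and 5.05% in MYCN+/SNRPD3- #1, and 7.62, 7.85 and 7.13% in MYCN+/SNRPD3- #2. The 6 MYCN+/SNRPD3- libraries were below all wildtype and all MYCN+/SNRPD3+ libraries, with no overlap. The intron fell by 6.63 points against wildtype (limma, adjusted p = 0.0181) and by 3.59 points with MYCN as a main effect (adjusted p = 0.0228). Of the 18 fits that left out 1 library, 15 kept the first call, all but those without a wildtype library (largest adjusted p 0.0789), and 14 kept the second (largest 0.0516). The step from the 73-base exon to exon 3, found only in NMD transcripts, fell by 7.38 points against wildtype (adjusted p = 0.0482), from 15.8% ± 3.47 (SD, n = 3) to 7.94% ± 1.76 and 8.93% ± 0.966 (SD, n = 3 each). That last call was kept in 2 of the 18 such fits, and the adjusted p was 0.199 without replicate 2 of wildtype.

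**Figure D2:**
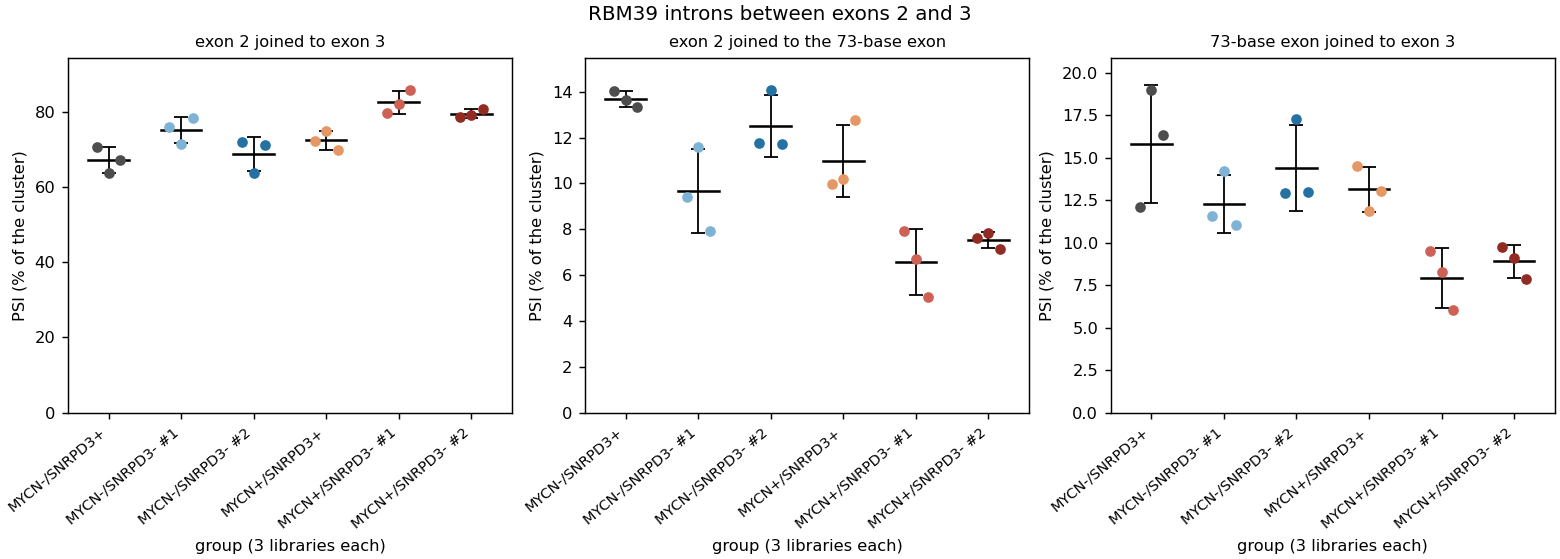
PSI in percent of 3 introns of RBM39 between exons 2 and 3, by group (x axis, 3 libraries each); points are libraries, horizontal lines the mean and bars the SD, and each panel has its own y axis from 0. All 6 MYCN+/SNRPD3- libraries lie above the wildtype libraries for the direct joining of exons 2 and 3 and below them for both introns of the 73-base exon.

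As a share of its own locus, the 73-base exon of RBM39 was skipped in most transcripts of every group. The skipping share was 84.4, 79.6 and 81.9% in wildtype, 85.5, 87.2 and 84.4% in MYCN+/SNRPD3+, 90.2, 91.6 and 93.9% in MYCN+/SNRPD3- #1 and 90.0, 90.3 and 91.5% in MYCN+/SNRPD3- #2. In MYCN-/SNRPD3- cells it was 87.8, 84.7 and 89.2% with siRNA #1 and 85.3, 80.2 and 85.2% with siRNA #2, just above wildtype for the first and overlapping it for the second. The share was 9.31 points higher in MYCN+/SNRPD3- than in wildtype (1.13 ± 0.2 log2 odds, SE; limma, adjusted p = 0.0119) and 5.15 points higher with MYCN as a main effect (adjusted p = 0.0185). The main effect was called in all 18 fits that left out 1 library, and the contrast with wildtype in 17, with an adjusted p of 0.0566 without replicate 2 of wildtype. With siRNA #1 or #2 alone the main effect was not called (adjusted p = 0.147 and 0.0975), and with siRNA #2 alone the contrast with wildtype was not either (adjusted p = 0.0607).

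These were among 3 of 50 RBM cassette sets (6.0%) called in MYCN+/SNRPD3- against wildtype, where 5.69% of all 18473 sets were called, and among 4 (8.0%) called for MYCN, where 4.87% of all were called. The share of RBM cassettes called was thus close to the background in the first comparison. The 4 sets called for MYCN lay in 3 clusters, since they include both forms of RBM6 exon 3, which share a skipping intron. Without 1 library the first count was 0 to 8: it was 0 without replicate 2 of wildtype, 1 without replicate 1 or 3 of wildtype, 5 without replicate 2 of MYCN+/SNRPD3- #2 and 8 without replicate 2 of MYCN+/SNRPD3- #1. For knockdown as a main effect limma called 0 RBM sets and 0.0% of all, with 9 RBM sets at an unadjusted p under 0.05. For MYCN alone it called 0 RBM sets and 0.0325% of all (4 unadjusted), for knockdown with MYCN expressed 0 and 0.0379% (7 unadjusted), for knockdown with MYCN repressed 0 and 0.0% (1 unadjusted), and for the interaction 0 and 0.0% (1 unadjusted).

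The third called set in MYCN+/SNRPD3- against wildtype was a 155-base exon of RBM39 (chr20:35739393-35739547) that follows the 73-base exon in NMD transcripts. Its skipping share fell by 7.59 points (adjusted p = 0.0293, kept in 13 of the 18 fits and 0.113 without replicate 2 of wildtype), from 90.1% ± 1.64 to 83.6% ± 4.13 and 81.5% ± 2.17 (SD, n = 3 each). This share has as its skipping intron the same step from the 73-base exon to exon 3 that fell above, so it is not a separate measurement. The introns on either side of the 155-base exon had mean PSI of 1.25% and 2.24% over all libraries and adjusted p of 0.864 and 0.968 in that contrast. Exon 5 of RBM39, of 66 bases, had a skipping share of 8.05% ± 2.92 in wildtype and 13.8% ± 2.84 and 12.7% ± 2.19 in MYCN+/SNRPD3- cells (SD, n = 3 each), which was not called (5.24 points, adjusted p = 0.117).

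With the 73-base exon inserted, the RBM39 reading frame computed on the reference transcript stopped after 40 codons in place of 530, inside the inserted exon and 1442 bases before the last exon junction. A stop more than 50 bases before the last junction is the usual textbook criterion for NMD. This is a property of the annotated sequence; whether the transcripts were degraded was not tested, and a form that is degraded would be undercounted in PSI.

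RBM25 encodes a U1-associated protein that influences 5′ splice site choice. In RBM25 (ENSG00000119707, chromosome 14, plus strand), joining of exon 9 to exon 10 (chr14:73099750-73103192) was higher with MYCN, and the introns of a 62-base exon between them were lower. The splice sites are given because the same alternative, a frame-shifting exon inside an intron, recurs here.
RBM25 exon 9, 5′ splice site (chr14:73099748-73099756): AAGgtagta
RBM25 62-base exon, 3′ splice site (chr14:73100281-73100303): gacccccaccattatgatagAGA
RBM25 62-base exon, 5′ splice site (chr14:73100360-73100368): GATgtaagt
RBM25 exon 10, 3′ splice site (chr14:73103172-73103194): gtgcttttattggtttctagAAA

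The PSI of the RBM25 intron from exon 9 to exon 10 was 87.4, 88.2 and 87.9% in wildtype, 89.2, 90.0 and 89.9% in MYCN-/SNRPD3- #1, and 87.6, 88.4 and 90.2% in MYCN-/SNRPD3- #2. With MYCN it was 91.8, 91.5 and 92.8% in MYCN+/SNRPD3+, 94.0, 92.4 and 94.6% in MYCN+/SNRPD3- #1, and 92.2, 91.2 and 93.4% in MYCN+/SNRPD3- #2. Every one of the 9 MYCN+ libraries lay above every one of the 9 MYCN- libraries. The main effect of MYCN was 3.91 points (0.62 ± 0.09 log2 odds, SE; limma, adjusted p = 0.00371), called in all 18 fits that left out 1 library. MYCN+/SNRPD3- exceeded wildtype by 5.16 points (adjusted p = 0.0201), a call lost without any 1 of the 3 wildtype libraries (adjusted p 0.0758 to 0.0849). The knockdown main effect was 1.17 points (adjusted p = 0.672).

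The intron that leads into the 62-base exon of RBM25 fell by 2.27 points with MYCN (adjusted p = 0.0311), from group means between 5.72 and 7.14% without MYCN to between 3.64 and 4.56% with it. The intron that leads out of it, which is not annotated, fell by 1.25 points (adjusted p = 0.0207), and here too no MYCN+ library overlapped a MYCN- library. On the reference transcript, the inserted exon ended the frame after 294 codons in place of 843, with the stop 1616 bases before the last junction. An alternative RBM25 exon further upstream, of 122 bases, was skipped in 93.6 to 95.8% by group mean and was not called (adjusted p = 0.462 in the combined contrast and 0.52 for MYCN).

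RBM5, a component of early spliceosomes studied as a candidate tumour suppressor, had more skipping of its exon 8 with MYCN. RBM5 (ENSG00000003756) lies on the plus strand of chromosome 3, and exon 8 has 61 bases (chr3:50104248-50104308). It is printed whole, in capitals, with the ends of the flanking introns, since it is the only whole exon of the canonical RBM5 transcript whose skipping was called.
RBM5 exon 8 (chr3:50104228-50104314): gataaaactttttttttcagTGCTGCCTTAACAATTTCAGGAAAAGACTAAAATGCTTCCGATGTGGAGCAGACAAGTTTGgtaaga

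The skipping share of RBM5 exon 8 was 7.28, 9.14 and 8.37% in wildtype, 11.1, 8.55 and 16.6% in MYCN-/SNRPD3- #1, and 11.6, 8.004 and 11.3% in MYCN-/SNRPD3- #2. It was 16.2, 14.01 and 17.55% in MYCN+/SNRPD3+, 16.3, 20.2 and 30.0% in MYCN+/SNRPD3- #1, and 13.7, 17.7 and 28.2% in MYCN+/SNRPD3- #2. All 9 MYCN+ libraries exceeded all wildtype libraries, replicate 3 of each MYCN+/SNRPD3- group stood highest, and replicate 3 of MYCN-/SNRPD3- #1 reached into the MYCN+ range. The main effect of MYCN was 9.1 points (1.0 ± 0.21 log2 odds, SE; limma, adjusted p = 0.0163), called in all 18 fits without 1 library but not with siRNA #1 or #2 alone (adjusted p = 0.0805 and 0.0762). MYCN+/SNRPD3- exceeded wildtype by 12.8 points (adjusted p = 0.0225), lost without any 1 wildtype library (adjusted p 0.0674 to 0.0801) and with siRNA #2 alone (adjusted p = 0.0893). The knockdown main effect was 4.02 points (adjusted p = 0.384).

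The PSI of the RBM5 skipping intron alone (chr3:50103166-50105077) rose by 5.4 points with MYCN (adjusted p = 0.032), and that call was kept in 5 of 18 fits without 1 library, with a largest adjusted p of 0.0694. Skipping exon 8 moved the stop of the reference transcript to exon 10, after 217 codons in place of 815 and 1607 bases before the last junction. RBM5 exon 6, of 74 bases, was skipped in 9.61% ± 4.17 of wildtype and 18.1% ± 4.64 and 16.1% ± 6.35 of MYCN+/SNRPD3- transcripts by this share (SD, n = 3 each; 7.48 points, adjusted p = 0.126). Its skipping intron, annotated only in NMD transcripts, had an adjusted p of 0.294. Exon 16, of 85 bases, had 4.77% ± 0.302 in wildtype and 8.09% ± 1.38 and 8.63% ± 4.63 in MYCN+/SNRPD3- (SD, n = 3 each; adjusted p = 0.167), so neither exon was called.

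RBM6, the neighbour and paralogue of RBM5, moved the opposite way at its long exon 3. RBM6 (ENSG00000004534) exon 3 has 1279 bases (chr3:49967470-49968748), and a longer form starts 272 bases upstream and has 1551 bases. The skipping share of the 1279-base form was 11.9, 16.01 and 11.8% in wildtype, 11.8, 12.1 and 9.96% in MYCN-/SNRPD3- #1, and 10.0, 19.2 and 13.2% in MYCN-/SNRPD3- #2. With MYCN it was 7.67, 7.55 and 8.81% in MYCN+/SNRPD3+, 6.17, 11.1 and 7.01% in MYCN+/SNRPD3- #1, and 6.99, 7.93 and 7.44% in MYCN+/SNRPD3- #2. Apart from replicate 2 of MYCN+/SNRPD3- #1, every MYCN+ library was below every MYCN- library. Skipping fell by 5.03 points with MYCN (0.72 log2 odds lower, SE 0.16; limma, adjusted p = 0.023), in all 18 fits without 1 library but not with siRNA #1 or #2 alone (adjusted p = 0.144 and 0.0641).

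For the longer form of RBM6 exon 3 the fall was 6.28 points (adjusted p = 0.0295), kept in 8 of those 18 fits, and both forms share the skipping intron. The knockdown main effect was -0.387 points for the shorter form (adjusted p = 0.881). MYCN+/SNRPD3- against wildtype gave -5.47 points for the shorter form (limma, adjusted p = 0.0667) and -6.42 points for the longer (adjusted p = 0.099). Neither form was called in that contrast. On the reference transcript, skipping exon 3 ended the frame after 33 codons in place of 1123, in exon 4, although some annotated transcripts that skip it are marked protein-coding. RBM6 exon 6, of 74 bases, was skipped in 19.9 to 28.5% by group mean and was not called (adjusted p = 0.313 for MYCN).

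**Figure D3:**
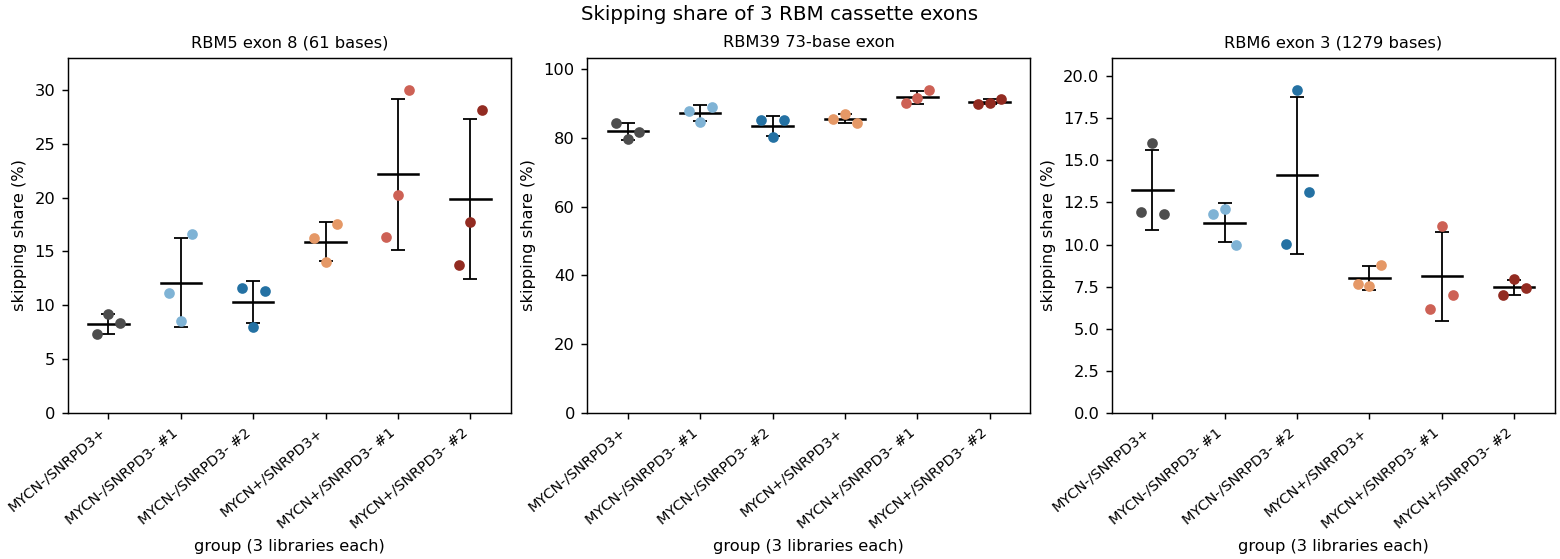
Skipping share in percent of RBM5 exon 8, the 73-base exon of RBM39 and RBM6 exon 3 (1279-base form), by group (x axis, 3 libraries each); points are libraries, horizontal lines the mean and bars the SD, and each panel has its own y axis from 0. All 6 MYCN+/SNRPD3- libraries lie above the 3 wildtype libraries for RBM5 and RBM39 and below them for RBM6. The RBM6 difference was not called in that contrast.

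RBM10, a further paralogue of RBM5 and a splicing repressor mutated in lung cancer, used a 3′ splice site in intron 9 at a low level. In RBM10 (ENSG00000182872, chromosome X, plus strand), exon 8 was joined to exon 9 (chrX:47179163-47179319) or to an unannotated site 36 bases past the end of exon 9. The 2 acceptors are set side by side, with the first exon bases in capitals.
RBM10 exon 9, 3′ splice site (chrX:47179299-47179321): tctcccactgcccctgacagAGG
RBM10 unannotated 3′ splice site (chrX:47179511-47179533): cttcttcctctgtgccctagGGT

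The PSI of the unannotated RBM10 site was 0.0228, 0.0233 and 0.0328% in wildtype, 0.0221, 0.0192 and 0.0293% in MYCN-/SNRPD3- #2, and 1.95, 0.898 and 3.54% in MYCN-/SNRPD3- #1. It was 3.56, 1.62 and 0.0168% in MYCN+/SNRPD3+, 3.03, 2.49 and 2.01% in MYCN+/SNRPD3- #1, and 2.41, 4.16 and 3.78% in MYCN+/SNRPD3- #2. Values under 0.04% were found in 7 libraries, and PSI is never exactly 0 in these data, so they may stand for no reads at the site. The site was 2.95 points higher in MYCN+/SNRPD3- than in wildtype (limma, adjusted p = 0.0423) and 1.84 points higher with MYCN (adjusted p = 0.0389), and the joining to exon 9 lower by the same amounts. This site passed the filter on the mean (1.645% over all libraries) only through the groups where it was high, since its mean was 0.026% in wildtype and 0.024% in MYCN-/SNRPD3- #2, so a difference was built into its selection and these p-values are no support for it. Both introns of the pair are among the 8 and the 9 RBM introns called in these comparisons. MYCN+/SNRPD3- libraries were all above wildtype, whereas MYCN+ and MYCN- libraries overlapped. Each of these calls was kept in 4 of 18 fits without 1 library, with largest adjusted p of 0.148 without replicate 2 of wildtype and 0.0787 without replicate 3 of MYCN+/SNRPD3- #2. RBM10 exon 4, of 231 bases, a known alternative exon, was skipped in 26.7% ± 8.34 of wildtype and 28.02% ± 0.695 and 35.8% ± 1.05 in MYCN+/SNRPD3- #1 and #2 (SD, n = 3 each), which was not called (adjusted p = 0.391). Splicing of RBM10 exon 7 to exon 8 ranged from 44.6 to 80.0% over the libraries and differed by 6.7 points with MYCN (adjusted p = 0.78).

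RBM23, a close relative of RBM39, had no called intron or exon. Its exon 2, of 76 bases, was set against an intron that joins exon 1 to exon 5. That intron also passes over exons 3 and 4, so the share is not the skipping of exon 2 alone. The share was 5.37% ± 0.676 in wildtype, 5.21% ± 0.685 in MYCN+/SNRPD3+, 14.3% ± 7.02 in MYCN+/SNRPD3- #1 and 9.52% ± 4.25 in MYCN+/SNRPD3- #2 (SD, n = 3 each). Replicate 3 was the highest library of both MYCN+/SNRPD3- groups, at 22.2 and 13.4%, and the adjusted p was 0.101 against wildtype. RBM23 exon 4, of 48 bases, was skipped in 70.0 to 77.0% by group mean, and exon 6, of 54 bases, in 10.2 to 19.2% (adjusted p = 0.558 and 0.777). The tested introns of the splice site choice group numbered 100, with 21 in RBM10, 16 in RBM39, 15 in RBM6, 14 in RBM5, 13 in RBM23 and 9 in RBM25. Of the 100, 6 were called in MYCN+/SNRPD3- against wildtype, where 0.559% of all introns were called. For MYCN 8 of the 100 were called, where 1.23% of all were. Both counts of calls include the RBM10 pair, whose selection built in a difference. RBM17, RBM22 and RBM42, which act in the assembly or the core of the spliceosome, had 5, 4 and 3 tested introns and none called in any comparison.

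In the minor spliceosome group, RBM48 used a downstream 5′ splice site more often after SNRPD3 knockdown in MYCN+ cells. RBM48 (ENSG00000127993, chromosome 7, plus strand) joined its exon 1 to exon 2 either from the usual site or from an annotated site 259 bases further on. The competing 5′ splice sites are shown with exon bases in capitals.
RBM48 exon 1, 5′ splice site (chr7:92528922-92528930): AAGgtaaag
RBM48 downstream 5′ splice site (chr7:92529181-92529189): CAGgtaagc

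PSI of the downstream RBM48 site (chr7:92529183-92529476) was 4.72, 6.95 and 4.38% in wildtype, 6.36, 4.64 and 8.05% in MYCN-/SNRPD3- #1, and 7.52, 8.82 and 12.4% in MYCN-/SNRPD3- #2. It was 3.43, 2.36 and 2.61% in MYCN+/SNRPD3+, 10.7, 12.5 and 13.7% in MYCN+/SNRPD3- #1, and 7.23, 6.02 and 6.79% in MYCN+/SNRPD3- #2. With MYCN expressed, all 6 knockdown libraries exceeded the 3 control libraries, which were the lowest of all 18, while with MYCN repressed the knockdown and control libraries overlapped. Knockdown with MYCN expressed gave 6.69 points (1.52 ± 0.21 log2 odds, SE; limma, adjusted p = 0.0326) and knockdown as a main effect 4.65 points (adjusted p = 0.0417). The difference between the knockdown effects with and without MYCN was 4.07 points (adjusted p = 1.0), so no dependence on MYCN was shown.

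The RBM48 difference was not of the same size with each siRNA, but the siRNAs were not tested against each other. In MYCN+ cells the difference was 9.5 points with siRNA #1 alone (adjusted p = 0.014) and 3.88 points with siRNA #2 alone (adjusted p = 0.343), and in MYCN- cells it was 1.0 and 4.23 points (adjusted p = 1.0 and 0.802). The call with MYCN expressed was kept in 9 of 18 fits without 1 library, with a largest adjusted p of 0.153 without replicate 2 of MYCN+/SNRPD3+, and was lost as well without any other MYCN+/SNRPD3+ library, replicate 1 of wildtype, of MYCN-/SNRPD3- #1 or of MYCN+/SNRPD3- #2, replicate 2 of MYCN-/SNRPD3- #2, or replicate 3 of either MYCN+/SNRPD3- group. The main effect was kept in 4 of 18, without replicate 2 of wildtype or of MYCN-/SNRPD3- #1 and without replicate 1 or 2 of MYCN-/SNRPD3- #2 (largest adjusted p 0.113 without replicate 3 of wildtype). On the reference transcript, the downstream site ended the frame after 39 codons in place of 367, 1156 bases before the last junction. RBM48 had 7 tested introns in all. RBM41, which binds minor spliceosomal snRNA, had 15 and no call. Its exon 5, of 72 bases and in frame (413 in place of 437 codons when skipped), had a skipping share of 64.4% ± 7.55 in wildtype and 76.0% ± 5.11 and 70.5% ± 5.2 in MYCN+/SNRPD3- (SD, n = 3 each; adjusted p = 0.196).

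In the nuclear exosome and export group (RBM7, RBM26, RBM27 and RBM33), 1 of 49 tested introns was called in MYCN+/SNRPD3- against wildtype, where 0.559% of all introns were, and 0 in the other comparisons. There were 23 in RBM26, 13 in RBM33, 9 in RBM27 and 4 in RBM7. RBM26, a partner of the exosome-targeting machinery, joined its exon 21 more often to a distal last exon. In RBM26 (ENSG00000139746, chromosome 13, minus strand) that exon begins 5717 bases beyond the start of exon 22 of the canonical transcript. The acceptors are shown on the minus strand, with exon bases in capitals.
RBM26 exon 22, 3′ splice site (chr13:79320708-79320730): aaatacattttaacctaaagTTT
RBM26 distal last exon, 3′ splice site (chr13:79314991-79315013): atagtcttctctttttccagCAG

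PSI of the RBM26 intron to the distal exon (chr13:79314993-79322349) was 6.64, 5.12 and 7.40% in wildtype and 7.14, 8.45 and 8.89% in MYCN+/SNRPD3+. After knockdown it was 11.2, 9.95 and 14.97% in MYCN-/SNRPD3- #1, 9.74, 11.5 and 13.8% in MYCN-/SNRPD3- #2, 13.7, 13.04 and 17.9% in MYCN+/SNRPD3- #1 and 11.1, 11.9 and 15.5% in MYCN+/SNRPD3- #2. All 12 knockdown libraries lay above all 6 control siRNA libraries, whatever the MYCN status, and replicate 3 was the highest library in each of the 6 groups. MYCN+/SNRPD3- exceeded wildtype by 7.48 points (1.12 ± 0.19 log2 odds, SE; limma, adjusted p = 0.0266). The knockdown main effect of 5.6 points was not called (unadjusted p = 3.77e-05, adjusted p = 0.0821), and MYCN as a main effect gave 1.92 points (adjusted p = 0.437).

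The call of RBM26 in MYCN+/SNRPD3- was kept in 13 of 18 fits without 1 library. It was lost without any 1 wildtype library (adjusted p 0.0676 to 0.131) and without replicate 3 of MYCN+/SNRPD3- #1 or #2 (adjusted p = 0.0505 and 0.0537). Splicing of exon 21 to exon 22 in the same cluster was 44.9% ± 1.83 in wildtype and 43.7% ± 2.68 and 41.9% ± 2.64 in MYCN+/SNRPD3- (SD, n = 3 each; adjusted p = 0.807). An unannotated intron ending at the same distal exon (chr13:79314993-79318821) had a difference of -6.53 points in the same contrast (adjusted p = 0.138).

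**Figure D4:**
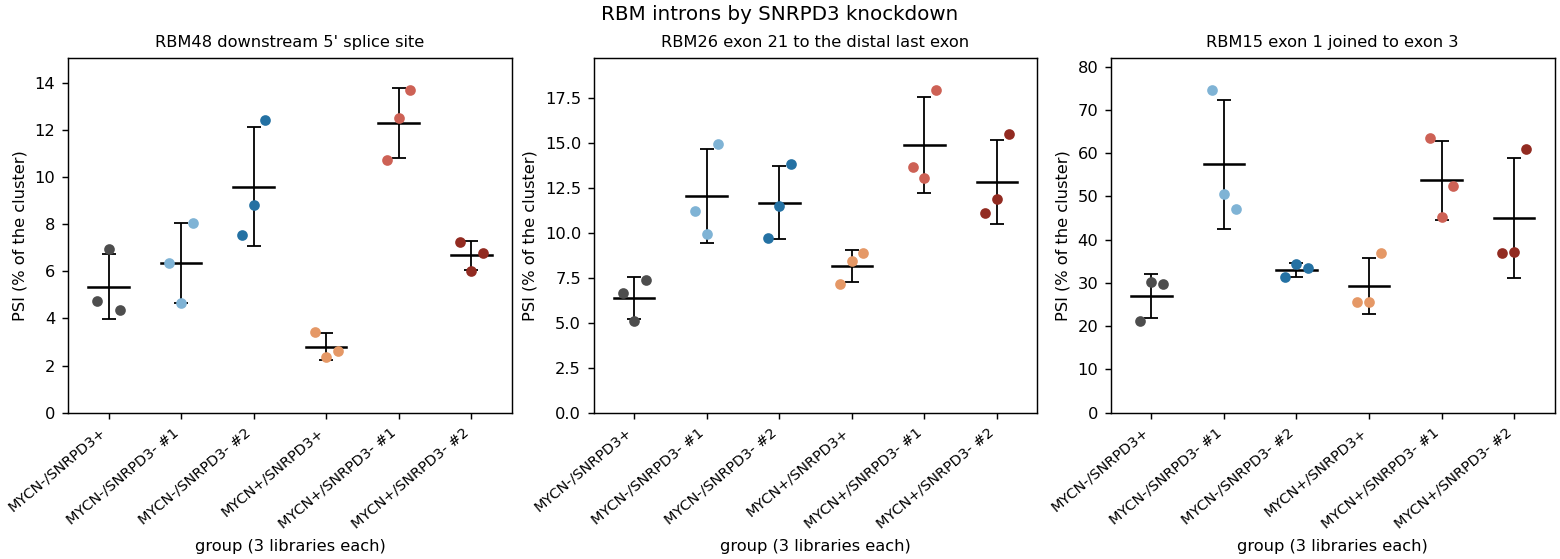
PSI in percent of the downstream 5′ splice site of RBM48, the intron from RBM26 exon 21 to the distal last exon and the intron joining RBM15 exons 1 and 3, by group (x axis, 3 libraries each); points are libraries, horizontal lines the mean and bars the SD, and each panel has its own y axis from 0. For RBM26 all 12 knockdown libraries lie above the 6 control siRNA libraries, and for RBM15 all 6 libraries with siRNA #1 do.

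RBM15, a subunit of the m6A methyltransferase complex, showed a wide difference that was not called in its 3 tested introns. RBM15 (ENSG00000162775, chromosome 1, plus strand) has 3 exons, and exon 2, of 111 bases, lies between these splice sites.
RBM15 exon 2, 3′ splice site (chr1:110345519-110345541): tttttctgtctctctcacagGGT
RBM15 exon 2, 5′ splice site (chr1:110345647-110345655): CAGgtaacc

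PSI for joining RBM15 exon 1 to exon 3 (chr1:110342268-110346308) was 21.1, 30.2 and 29.7% in wildtype and 25.7, 25.7 and 36.8% in MYCN+/SNRPD3+. It was 74.5, 50.6 and 47.1% in MYCN-/SNRPD3- #1, 31.4, 34.5 and 33.4% in MYCN-/SNRPD3- #2, 63.4, 45.3 and 52.5% in MYCN+/SNRPD3- #1, and 36.9, 37.2 and 60.9% in MYCN+/SNRPD3- #2. Values with siRNA #1 were all above those of the controls, and in MYCN- cells siRNA #2 lay just above wildtype and within the range of MYCN+/SNRPD3+. The knockdown difference was 19.1 points (limma, adjusted p = 0.256), 27.4 points with siRNA #1 alone (adjusted p = 0.179) and 10.8 points with siRNA #2 alone (adjusted p = 0.752). The skipping share of exon 2 gave 19.4 points for knockdown (adjusted p = 0.0983) and 23.3 points for MYCN+/SNRPD3- against wildtype (adjusted p = 0.0578). On the reference transcript, skipping exon 2 gave 969 in place of 977 codons and moved the stop from exon 2, 40 bases before the last junction, into exon 3, the last exon.

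Among the 43 introns of 6 genes known for tissue-specific exons (RBM4, RBM4B, RBM20, RBM24, RBM38 and RBM47), 1 was called for MYCN, where 1.23% of all introns were, and 0 in the other comparisons. RBM20 had 15 of these introns, RBM47 10, RBM38 6, RBM4 and RBM4B 5 each and RBM24 2. RBM20 (ENSG00000203867), known for the splicing of titin in heart, joined an unannotated 5′ splice site in its intron 9 to exon 10 (chr10:110816811-110820072, plus strand). PSI was 5.26, 4.11 and 4.62% in wildtype, 2.85, 2.70 and 2.43% in MYCN-/SNRPD3- #1, and 3.86, 3.59 and 2.20% in MYCN-/SNRPD3- #2. With MYCN it was 7.20, 8.25 and 8.33% in MYCN+/SNRPD3+, 5.11, 4.24 and 4.18% in MYCN+/SNRPD3- #1, and 6.23, 6.73 and 5.50% in MYCN+/SNRPD3- #2. The MYCN+/SNRPD3+ libraries were the highest, and within each siRNA the MYCN+ libraries all exceeded the MYCN- ones.

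This RBM20 intron rose by 2.68 points with MYCN (0.72 ± 0.1 log2 odds, SE; limma, adjusted p = 0.00295), in all 18 fits without 1 library. Its knockdown difference of -2.16 points was not called (adjusted p = 0.13), and MYCN+/SNRPD3- against wildtype gave 0.664 points (adjusted p = 0.795). The annotated RBM20 intron from exon 9 to exon 10 was 28.7 to 37.9% by group mean (adjusted p = 0.612 for knockdown), and an unannotated intron from exon 3 differed by 5.34 points with MYCN (adjusted p = 0.418). In RBM38, an unannotated intron from exon 1 ranged from 0.0811 to 98.5% over the libraries, with 0.108 and 98.5% both in wildtype, and was not called (adjusted p = 0.706 for knockdown and 0.843 for MYCN).

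Several large differences rested on repeated or scattered values and were not called. RBM8A, the Y14 subunit of the exon junction complex, had 6 tested introns. The intron chr1:145921833-145925879 held 10 different values in 18 libraries and was 23.7% in 8 of them, with a knockdown difference of 13.8 points (adjusted p = 0.745). Its 3 MYCN+/SNRPD3+ libraries had 0.589, 0.888 and 0.762%, below all MYCN+/SNRPD3- libraries, and knockdown with MYCN expressed gave 41.8 points, which was not called (adjusted p = 0.313). The alternative of that RBM8A intron, chr1:145921833-145925863, had a MYCN difference of -21.4 points (adjusted p = 0.47) and was 51.9% in the same libraries. RBM44, a germ cell protein, likewise had 10 different values at its introns from exon 6, and 7.89% recurred at the intron to exon 8 (knockdown 5.37 points, adjusted p = 0.759).

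The ribosome biogenesis genes RBM19, RBM28 and RBM34 had 21, 12 and 5 tested introns and none called. The RBM19 intron chr12:113822646-113823209 was 73.9% ± 7.85 in wildtype, 61.7% ± 9.08 in MYCN+/SNRPD3+ and 76.8% ± 5.1 in MYCN+/SNRPD3- #1 (SD, n = 3 each; knockdown main effect 5.44 points, adjusted p = 0.833), and an unannotated RBM19 intron differed by 6.09 points with MYCN (adjusted p = 0.847). RBM34 joined its exon 2 to exon 4, annotated only in NMD transcripts, at 5.30% ± 0.941 in wildtype and 6.45% ± 0.508 and 7.46% ± 1.46 in MYCN+/SNRPD3- (SD, n = 3 each; adjusted p = 0.295), and its splice sites are also assigned to ARID4B. The cold-inducible gene RBM3 and the paraspeckle gene RBM14 had 2 tested introns each and no call. Skipping of a 424-base exon assigned to the read-through gene RBM14-RBM4 was 5.00% ± 0.27 in wildtype. It was 13.2% ± 6.18 and 15.4% ± 10.6 in MYCN+/SNRPD3- #1 and #2 (SD, n = 3 each). The difference from wildtype, 9.32 points, was not called (limma, adjusted p = 0.0758). The MYCN+/SNRPD3- #2 libraries had 14.5, 5.26 and 26.4%, and replicate 2 lay within the wildtype range.

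In the remaining group (RBM12, RBM12B, RBM18, RBM43, RBM44 and RBM45), 1 of 37 introns was called in MYCN+/SNRPD3- against wildtype, where 0.559% of all introns were, and 0 in the other comparisons. There were 7 in RBM12, 6 in RBM12B, 9 in RBM18, 5 in RBM43, 3 in RBM44 and 7 in RBM45. RBM45 (ENSG00000155636), a protein found in neuronal inclusions, joined exon 9 to an alternative 40-base exon (chr2:178126184-178133861) at 1.56, 2.68 and 3.30% in wildtype. The other groups had means between 5.03 and 6.08%, and all 15 of their libraries lay above all 3 wildtype libraries. MYCN+/SNRPD3- exceeded wildtype by 3.32 points (adjusted p = 0.0499), a call kept in 2 of 18 fits without 1 library and weakest without replicate 1 of wildtype (adjusted p = 0.193). MYCN alone gave 3.57 points (adjusted p = 0.231) and knockdown with MYCN repressed 2.79 points (adjusted p = 0.525).

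The non-coding genes RBM15-AS1, RBM26-AS1 and RBM33-DT had 7, 20 and 5 tested introns and no call. The RBM26-AS1 intron from exon 6 to exon 7 ranged from 0.466 to 65.2% over the libraries (MYCN difference -14.9 points, adjusted p = 0.573), and the unannotated intron from exon 6 from 0.374 to 98.3% (knockdown difference -9.25 points, adjusted p = 0.973). RBM33-DT joined exon 1 to exon 2 in 74.9% ± 4.55 of wildtype and 62.5% ± 6.48 of MYCN+/SNRPD3- #1 (SD, n = 3 each; MYCN difference -8.19 points, adjusted p = 0.149), and its sites are shared with another gene.

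The 18 partner genes, which encode proteins of the complexes that RBM proteins bind, had 178 tested introns. Of these, limma called 2 in MYCN+/SNRPD3- against wildtype, where 0.559% of all introns were called. It called 1 for the MYCN main effect, where 1.23% of all were, and 0 in the other comparisons. In those others, 4 to 18 of the 178 had an unadjusted p under 0.05, where 3.98 to 7.8% of all introns did. Both calls of the combined contrast lay in SF3B1, the branch site factor of the U2 snRNP. Its annotated intron chr2:197398581-197400055 was 3.21 points higher (adjusted p = 0.0438), from 95.2% ± 0.38 to 98.5% ± 0.522 and 98.2% ± 0.817 (SD, n = 3 each), and an unannotated alternative was 1.5 points lower (-1.5, adjusted p = 0.0397). CIRBP, the cold-inducible relative of RBM3, had 1 intron that fell by 5.38 points with MYCN (chr19:1274440-1274649, adjusted p = 0.0385). The 3′ splice site, exon junction, m6A and exosome partners otherwise had no call.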

How the data were processed

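Reads from stranded polyadenylated RNA were aligned by the authors to hg38 with STAR 2.5.0a, with SAMtools 1.3.1 also named in the submitters' processing notes, and passed through leafcutter (version not given in the sources used here). The unit deposited by the authors is PSI as a fraction, which sums to 1 within a cluster and was smoothed so that no value is 0 or 1. Their deposited comparisons, an FDR per cluster and a delta PSI per intron for 15 pairs of groups, hold the authors' own tests and were not used. Groups came from the sample labels, and 0 columns were left unmatched.

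Introns were placed on GENCODE 44 (the study used release 28), and exons were numbered along the canonical transcript. Sequences and reading frames came from the hg38 reference. Coordinates are 1-based. PSI with a mean of 0.01 to 0.99 was fitted with limma 3.58.1 in R 4.3.3 (lmFit and eBayes, offset 0.01, threshold 0.05, prior degrees of freedom 1.17 for introns and 1.71 for skipping shares). Tables and plots were made in Python 3.11.15 with numpy 2.4.6, pandas 2.3.3 and matplotlib 3.10.9. Tested on simulated data for the knockdown main effect, shifts of 1, 2 and 4 log2 odds in 200 of 152722 introns were called in 23.5, 55 and 79%.

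The members, roles and partner lists were chosen with earlier results of these data known. Named were all called introns (1 per cluster, smallest p) and cassettes, the 10 genes with the smallest p among introns differing by at least 5 points for MYCN and for knockdown (9 qualified for knockdown), cassette exons of listed splicing regulators skipped in 5 to 95%, and introns of NMD transcripts only at 5% or more. Other introns of a called cluster, RBM15 exon 2 and the partner calls were named after their values were seen. Alternatives covered each siRNA alone, thresholds, filters, offsets, scale, eBayes options, the groups fitted, a replicate block and leaving out each library. The skipping share in MYCN+/SNRPD3- against wildtype was added after seeing the data.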

Additional observations from a re-analysis of the deposited data

How the results depend on the processing

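Depth limits every value, since no reads per intron were given. No called value changed sign in the alternatives run, and the cause of each change below was not tested. For MYCN+/SNRPD3- against wildtype, the 8 called RBM introns became 4 with siRNA #1, 0 with siRNA #2, 0 at an adjusted p under 0.01, 5 with a minimum absolute difference of 5 points, 4 with an offset of 0.05, 3 on the plain PSI scale, 4 with trend and robust eBayes, 2 when only the compared groups were fitted, and 0 to 6 without 1 library. For MYCN, the 9 became 3 and 4 with siRNA #1 and #2, 2 at the stricter threshold, 2 with the minimum difference, 5 on the plain scale, 5 with a mean of 0.05 to 0.95, 5 with trend and robust eBayes, and 3 to 9 without 1 library. For knockdown with MYCN expressed, the 2 became 0 with siRNA #2, the stricter threshold, the offset of 0.05, the plain scale or trend and robust eBayes, and 0 to 2 without 1 library. For the knockdown main effect, the 2 became 0 with either siRNA, the stricter threshold, the minimum difference, the offset of 0.05, the plain scale or trend and robust eBayes, and 0 to 2 without 1 library. For MYCN alone, 1 intron was called when only the compared groups were fitted. The 4 cassettes for MYCN became 0 with either siRNA or the stricter threshold, and 3 to 5 without 1 library. The 3 cassettes in MYCN+/SNRPD3- against wildtype became 0 with siRNA #2 or the stricter threshold, and 0 to 8 without 1 library. Intron counts of 0 (MYCN alone, knockdown with MYCN repressed, the interaction) and the cassette count of 0 for the knockdown main effect stayed at 0 without 1 library; the other cassette counts of 0 were not recomputed.

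Libraries of the same replicate number deviated together with a mean correlation of 0.00615 over 45 pairs (-0.0509 to 0.0638), against -0.00307 for different numbers. For the same number it was 0.0253 within a MYCN status and -0.00659 across it. These correlations run over all tested introns, so they cannot show whether libraries of a number moved together at single introns. At the RBM26 intron to the distal exon, replicate 3 was the highest library of every group. With the replicate block, the RBM48 counts became 0 with MYCN expressed (adjusted p = 0.071) and 1 as a main effect (the RBM48 pair had an adjusted p of 0.0646), and the RBM10 site had 0.0508 against wildtype and 0.0576 for MYCN. In the same block fit, 11 introns were called in MYCN+/SNRPD3- against wildtype (8 higher) and 10 for MYCN, cassettes numbered 7 for MYCN and 5 in MYCN+/SNRPD3- against wildtype, and RBM26 for knockdown (adjusted p = 0.00966), RBM39 exon 5 (0.0161) and RBM6 exon 3 (0.0341, both against wildtype) were called.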
